A study of Mus musculus with 24 samples.

Results

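The genes described here are 9 genes of the meninges, the membranes that wrap the spinal cord and pass onto its nerve roots as a sheath: Foxc1, Foxd1, Zic1, Tbx18, Aldh1a2, Crabp2, Ptgds, Slc22a6 and Slc47a1. They were listed by name, and each was read through the array probe that carries its gene name, over all samples of the series. Of 37074 gene names on the array, 8 were these genes, each with 1 probe, and Crabp2 had no probe under its name, so that 8 of the 9 genes could be measured.

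RNA came from C57BL/6 mice, from efferent nerve fibres (EN, the ventral or motor roots) and afferent nerve fibres (AN, the dorsal or sensory roots) of spinal segments L4-L6. Both kinds of fibre were taken on the day of birth (postnatal day 0, P0) and at the ages of 1, 3 or 5 weeks (abbreviated W), which makes 8 groups of 3 arrays and 24 arrays in all. The mice carried no transgene or deletion and received no treatment that the labels name. Per the study's methods the spinal arachnoid was peeled off before the roots were cut out. By the same methods the efferent and afferent fibres went into 8 tubes that matched the 8 groups of age and fibre. Each group's data came from 3 independent experiments. How animals were divided among the 3 arrays of a group is not given in the sources used here, so p values measure the spread between these arrays, part of which may be technical.

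As background, the meninges consist of the dura and, beneath it, the arachnoid and pia, together called the leptomeninges. Fibroblasts of the leptomeninges depend on forkhead and Zic transcription factors during development, make retinoic acid, secrete prostaglandin D synthase into the cerebrospinal fluid and, in the arachnoid barrier, carry transporters that clear organic ions. At the nerve root the leptomeninges continue into the root sheath and further out into the perineurium. Few of these genes belong to the meninges alone: Tbx18 is also a gene of mural cells around vessels, and Ptgds is also made by oligodendrocytes.

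The genes lie on 6 chromosomes (RefSeq positions, mouse build GRCm38.p6): Foxc1 at chr13:31806646-31810635 and Foxd1 at chr13:98354245-98356705, Zic1 at chr9:91358058-91365768, Tbx18 at chr9:87702800-87731260 and Aldh1a2 at chr9:71215789-71296243, Ptgds at chr2:25466709-25470110, Slc47a1 at chr11:61343400-61378842, Slc22a6 at chr19:8617996-8628299, and the unmeasured Crabp2 at chr3:87948693-87953372. RefSeq promoter windows, from 250 bases before to 50 bases after the start of a transcript, matched 7 of the 9 genes. Their content of CG pairs differed widely. The window of Aldh1a2 held 50 CG pairs, that of Foxc1 32, that of Zic1 31, those of Foxd1 and Tbx18 15 each, and those of Ptgds and Slc22a6 only 2 each, against a median of 7 (quartiles 3 and 20) over 32851 promoter windows of the genome. Below, Foxc1 and Zic1 are shown because they moved most closely together across arrays, and Ptgds and Slc22a6 because they moved together among the replicates of a group.
Foxc1, chr13:31806396-31806695, plus strand: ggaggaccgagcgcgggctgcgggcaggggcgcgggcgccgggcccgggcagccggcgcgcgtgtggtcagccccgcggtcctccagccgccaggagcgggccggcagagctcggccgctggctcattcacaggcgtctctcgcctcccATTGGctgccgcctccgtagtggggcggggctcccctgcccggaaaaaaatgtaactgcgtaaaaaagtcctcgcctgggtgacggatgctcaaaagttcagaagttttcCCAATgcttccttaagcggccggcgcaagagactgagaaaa
Zic1, chr9:91365719-91366018, minus strand: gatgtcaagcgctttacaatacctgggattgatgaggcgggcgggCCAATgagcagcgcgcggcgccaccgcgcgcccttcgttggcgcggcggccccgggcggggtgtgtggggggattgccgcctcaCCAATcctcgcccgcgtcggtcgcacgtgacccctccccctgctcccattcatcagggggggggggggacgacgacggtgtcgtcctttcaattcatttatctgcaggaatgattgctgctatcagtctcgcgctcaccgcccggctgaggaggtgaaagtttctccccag
Ptgds, chr2:25469700-25469999, minus strand: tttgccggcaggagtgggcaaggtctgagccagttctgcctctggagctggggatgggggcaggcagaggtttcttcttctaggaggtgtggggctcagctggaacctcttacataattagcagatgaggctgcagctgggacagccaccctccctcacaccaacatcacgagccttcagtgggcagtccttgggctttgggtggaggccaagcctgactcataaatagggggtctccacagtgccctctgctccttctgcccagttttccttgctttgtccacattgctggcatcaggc
Slc22a6, chr19:8617746-8618045, plus strand: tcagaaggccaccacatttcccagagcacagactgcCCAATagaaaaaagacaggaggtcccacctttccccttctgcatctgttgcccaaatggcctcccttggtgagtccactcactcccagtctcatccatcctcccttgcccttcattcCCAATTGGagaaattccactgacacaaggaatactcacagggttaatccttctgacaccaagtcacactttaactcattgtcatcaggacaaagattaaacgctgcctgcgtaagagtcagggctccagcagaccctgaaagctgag
Capitals mark the letters CCAAT, or ATTGG where they lie on the other strand. The letters CCAAT were searched on both strands, and so were the TATA box as TATAAA, the single site of nuclear receptors such as those of retinoic acid as AGGTCA, and GTAAACA as a core that forkhead factors bind. A match to CCAAT was found in 6 of the 7 windows, all but Ptgds, and in 37.4% of all promoter windows. None of the 7 windows held the TATA box, which 13.6% of all windows did, nor the nuclear receptor site (16.3%) or the forkhead core (3.65%). In Slc22a6 the matches at 97 and 94 bases before the start overlap on opposite strands. These matches describe letters in the windows and nothing about which factors bind there.

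All 8 probes were well above background on all 24 arrays, and no spot was saturated. Over the arrays, 55.1% to 71.7% of gene spots were well above background. Levels below are normalized log2 signals as deposited, so that a difference of 1 is 2-fold, and levels of different probes are not compared. The arrays lay on 4 slides, each scanned at a time of its own, and an AN and an EN array of the same age and number always shared a slide. The AN 3 W array of replicate 3 stood apart: the mean log2 level of 8 sensory neuron genes was 14.04 there, against 9.88 and 9.44 in the other two AN 3 W arrays. At P0 the same list stood at 11.73 to 13.25 in AN and at 11.79 to 12.35 in EN, and a list of 6 skeletal muscle genes at 10.72 to 12.06 in AN and 11.80 to 13.66 in EN. In EN from 1 W on the sensory neuron list lay between 7.59 and 9.34, and the muscle list between 7.76 and 9.09. In AN the sensory neuron list was high on every 1 W array (12.56 to 12.81) and uneven at 5 W (11.11, 9.93 and 7.80). The muscle list in AN lay between 6.71 and 8.23 at 1 W and stood at 10.03, 7.39 and 7.07 at 5 W. Whether other tissue was carried over into these or other arrays was not tested. These are pieces of tissue, with signals normalized over each array. Fewer meningeal cells, less RNA per meningeal cell and more RNA from other cells thus cannot be told apart anywhere below.

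The main change in these genes was a fall with age. From P0 to 5 W, 6 of the 8 genes fell in AN (Aldh1a2, Slc22a6, Zic1, Foxd1, Tbx18 and Foxc1) and 5 of the 8 fell in EN (all of these but Foxc1), by 2.02-fold to 3.77-fold, and none rose. A gene is said to rise or fall, or is called, where limma gave a Benjamini-Hochberg adjusted p below 0.05 over all 36409 tested probes together with a fold change above 2. By that rule 27.8% of all tested probes were called between P0 and 5 W in AN and 29.9% in EN, and 12.7% and 14.5% were called and lower at 5 W. The median log2 change of the 8 genes was -1.46 in AN and -1.04 in EN, where the median of all tested probes was 0.03 and 0.04. Ptgds and Slc47a1 were not called at any age. Between AN and EN a fold above 2 was called only for Tbx18 at 3 W, while in the average over the ages 7 of the 8 genes had the higher mean in EN.

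**Figure D1:**
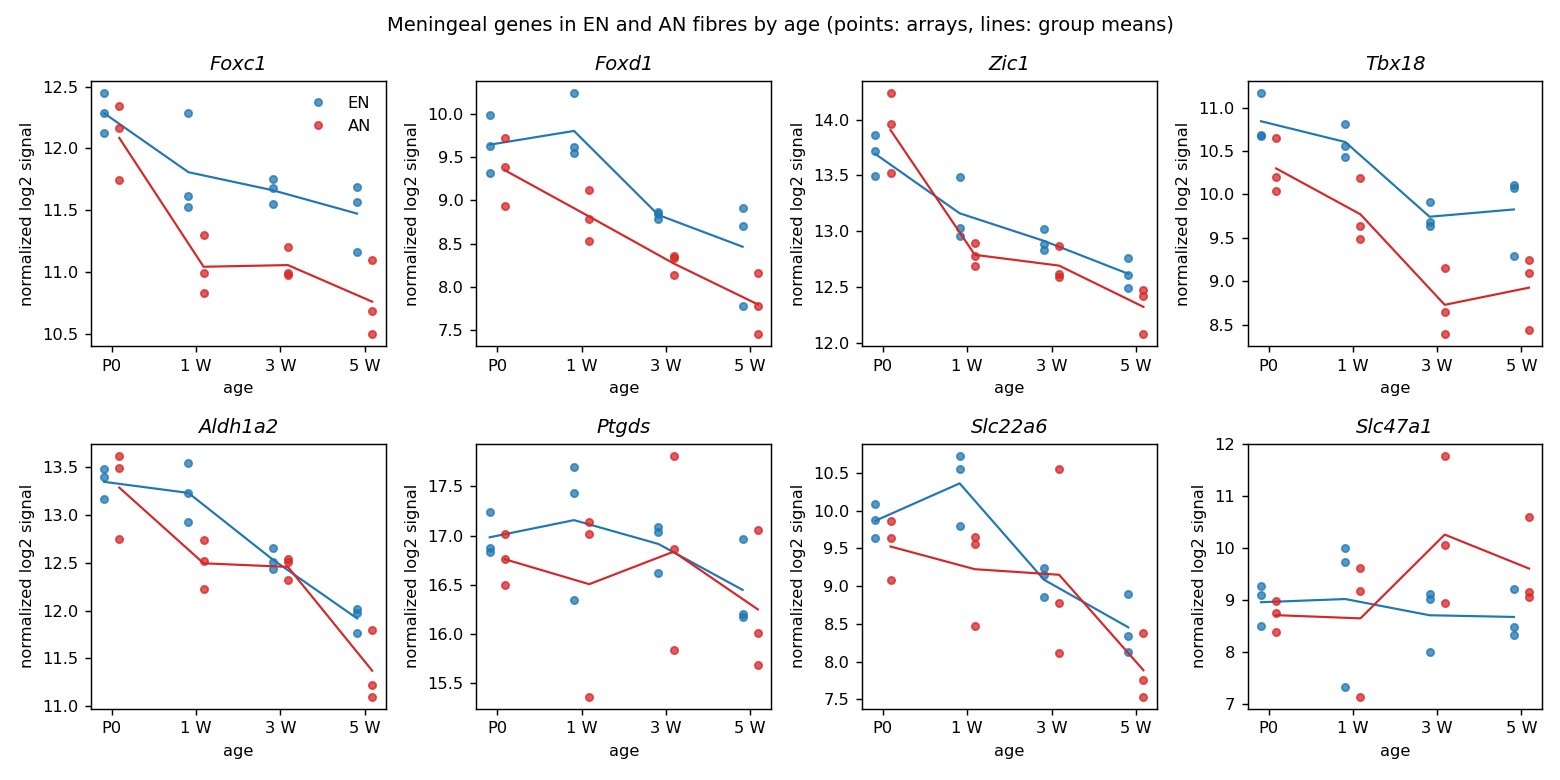
Normalized log2 signal (vertical axes, a scale of its own for each gene) of the 8 measured genes by age from P0 to 5 W in EN (blue) and AN (red), with a point for each array and lines through the means of 3 arrays. In both kinds of fibre the 5 W means of Foxc1, Foxd1, Zic1, Tbx18, Aldh1a2 and Slc22a6 lie below those of P0, and in AN at 3 W the groups of Ptgds, Slc22a6 and Slc47a1 are wide (SDs of 0.99, 1.26 and 1.43, against 0.12 to 0.38 for the other 5 genes).

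Foxc1 encodes a forkhead transcription factor that the meninges need in order to form. In AN its levels were 11.74, 12.16 and 12.35 at P0 (replicates 1, 2 and 3, the order used throughout) and 10.83, 11.00 and 11.30 at 1 W. They were 10.97, 11.00 and 11.20 at 3 W and 10.50, 10.68 and 11.10 at 5 W. Every later AN array was thus lower than every P0 array, and most of the step was complete at 1 W. The change from P0 was -1.04 ± 0.21 at 1 W (log2 fold change ± SE, adjusted p = 0.00159), -1.03 ± 0.21 at 3 W (adjusted p = 0.00052) and -1.32 ± 0.21 at 5 W (adjusted p = 3.80e-05). The earlier changes lay close to 2-fold: without AN P0 replicate 3 they were -0.91 at 1 W and -0.90 at 3 W, the change at 1 W was -0.94 without AN 1 W replicate 1, and that at 3 W was -0.99 without AN P0 replicate 2 or AN 3 W replicate 1, and it also fell just short of 2-fold without AN 3 W replicate 2. In EN the levels were 12.12, 12.45 and 12.28 at P0, 11.53, 11.61 and 12.28 at 1 W, 11.55, 11.68 and 11.75 at 3 W and 11.17, 11.57 and 11.69 at 5 W. The EN arrays of 3 W and 5 W lay below those of P0 without overlap, but the change at 5 W, -0.81 ± 0.21 (adjusted p = 0.0033), was 1.75-fold and so not called.

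Zic1 encodes a zinc finger transcription factor of the meninges and of the dorsal neural tube. Its AN levels were 13.52, 13.96 and 14.24 at P0, 12.69, 12.78 and 12.90 at 1 W, 12.87, 12.62 and 12.59 at 3 W and 12.08, 12.47 and 12.42 at 5 W. Here too all P0 arrays were above all later ones, and Zic1 fell at each later age in AN, with changes of -1.12 at 1 W (adjusted p = 0.000166), -1.21 at 3 W (adjusted p = 1.51e-05) and -1.58 at 5 W (adjusted p = 5.17e-07) on the log2 scale. In EN the levels were 13.49, 13.72 and 13.86 at P0, 12.96, 13.03 and 13.49 at 1 W, 13.03, 12.89 and 12.83 at 3 W and 12.49, 12.61 and 12.76 at 5 W. The EN decline was more gradual in its group means (13.69, 13.16, 12.92 and 12.62) and passed 2-fold only at 5 W (-1.07 ± 0.18, adjusted p = 4.64e-05). P0 replicate 3 was the highest array in both fibres, and without it the change was -0.95 at 1 W in AN and -0.99 at 5 W in EN, each just under 2-fold.

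Foxd1 encodes a second forkhead factor. In AN it stood at 8.93, 9.73 and 9.38 at P0, 8.53, 8.78 and 9.12 at 1 W, 8.13, 8.33 and 8.35 at 3 W and 7.45, 7.78 and 8.16 at 5 W. The 1 W arrays overlapped those of P0, and Foxd1 was lower than at P0 by the fit at 3 W (-1.08 ± 0.28, adjusted p = 0.00353) and 5 W (-1.55 ± 0.28, adjusted p = 0.000137). Without AN P0 replicate 2 the AN change at 3 W was -0.89. All 3 W arrays lay on a slide that held no P0 array, and with slide as a term in the fit Foxd1 was not called at 3 W. In EN it stood at 9.62, 9.99 and 9.32 at P0, 9.55, 9.62 and 10.24 at 1 W, 8.87, 8.78 and 8.84 at 3 W and 8.70, 8.91 and 7.78 at 5 W. The EN arrays of P0 and 1 W were the high ones, with the fall called at 5 W (-1.18 ± 0.28, adjusted p = 0.00159). Of the 3 EN arrays at 5 W replicate 3 was the lowest, and without it the change was -0.84, which is less than 2-fold.

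Tbx18 encodes a T-box transcription factor of meningeal and mural cells. Its EN levels were 10.68, 10.68 and 11.17 at P0, 10.56, 10.43 and 10.81 at 1 W, 9.64, 9.68 and 9.91 at 3 W and 10.11, 10.07 and 9.29 at 5 W. Its AN levels were 10.04, 10.20 and 10.65 at P0, 9.49, 9.63 and 10.19 at 1 W, 8.65, 9.15 and 8.39 at 3 W and 9.24, 9.10 and 8.44 at 5 W. In both kinds of fibre the step lay between 1 W and 3 W, and 3 W and 5 W overlapped. Tbx18 was the only one of these genes called in EN at 3 W (-1.10 ± 0.27, adjusted p = 0.0021), and its AN changes were -1.57 at 3 W (adjusted p = 8.99e-05) and -1.37 at 5 W (adjusted p = 0.000306). In EN at 5 W its change was -1.02 ± 0.27 (adjusted p = 0.00369), which was -0.85 without EN P0 replicate 3 and -0.75 without EN 5 W replicate 3, and at 3 W it was -0.94 without EN P0 replicate 3. All 3 W arrays lay on 1 slide that held no P0 array. With slide as a term in the fit, the changes at 3 W were -0.35 in EN (adjusted p = 0.371) and -0.82 in AN (adjusted p = 0.0376), neither of them called, and the genes called at 3 W were then Foxc1 (-1.01) and Aldh1a2 (-1.36) in EN and Foxc1 (-1.42), Zic1 (-1.38) and Aldh1a2 (-1.38) in AN.

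Aldh1a2 encodes a retinaldehyde dehydrogenase, the enzyme that makes retinoic acid in the meninges, and Crabp2 a protein that binds retinoic acid in the cell. The AN levels of Aldh1a2 were 12.75, 13.49 and 13.62 at P0, 12.22, 12.74 and 12.52 at 1 W, 12.54, 12.32 and 12.51 at 3 W and 11.22, 11.10 and 11.79 at 5 W. Its EN levels were 13.17, 13.40 and 13.47 at P0, 12.93, 13.54 and 13.22 at 1 W, 12.51, 12.65 and 12.43 at 3 W and 11.76, 12.02 and 11.97 at 5 W. In both, the 5 W arrays were below every array of the other ages. The drop at 5 W in AN, -1.91 ± 0.22 (3.77-fold, adjusted p = 7.39e-07), was the largest of the 8 genes, and that in EN was -1.43 ± 0.22 (adjusted p = 2.25e-05). At 3 W the changes, -0.83 in AN and -0.81 in EN, were less than 2-fold with adjusted p of 0.00392 and 0.00432. With slide as a term in the fit, Aldh1a2 was called at 3 W in both, as given with Tbx18 above.

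Slc22a6 encodes OAT1, a transporter of organic anions known from the kidney and from meningeal cells. In AN its levels were 9.08, 9.63 and 9.86 at P0, 8.47, 9.55 and 9.65 at 1 W, 8.78, 8.12 and 10.55 at 3 W and 7.75, 8.37 and 7.54 at 5 W. In EN they were 9.63, 10.08 and 9.88 at P0, 9.80, 10.56 and 10.73 at 1 W, 8.86, 9.24 and 9.15 at 3 W and 8.34, 8.89 and 8.13 at 5 W. The 5 W arrays were below those of P0 in both kinds of fibre, with changes of -1.64 ± 0.46 in AN (adjusted p = 0.0061) and -1.41 ± 0.46 in EN (adjusted p = 0.0148). Without EN 5 W replicate 3 the EN change was -1.25 with an adjusted p of 0.0556. Replicate 3 was the high array at 3 W in AN, the one that also stood apart in sensory neuron genes, and its 10.55 was the highest AN value of Slc22a6. Without it Slc22a6 was already called at 3 W in AN, at a change of -1.07 (adjusted p = 0.0227). Whether other tissue in that array had a part in its meningeal genes was not tested.

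Ptgds encodes lipocalin-type prostaglandin D synthase, one of the most abundant secreted products of the leptomeninges. Its EN levels were 16.87, 17.24 and 16.83 at P0, 16.34, 17.70 and 17.43 at 1 W, 16.62, 17.04 and 17.09 at 3 W and 16.17, 16.96 and 16.21 at 5 W. Its AN levels were 16.50, 17.01 and 16.77 at P0, 15.36, 17.02 and 17.14 at 1 W, 16.86, 15.84 and 17.81 at 3 W and 16.01, 17.05 and 15.69 at 5 W. Groups overlapped in every comparison by age, and the change from P0 to 5 W was -0.54 in EN (95% interval -1.58 to 0.51) and -0.51 in AN (95% interval -1.56 to 0.54), which leaves room for changes of more than 2-fold in either fibre. The mean level of Ptgds in AN was 16.51 ± 0.99 at 1 W (SD, n = 3) and 16.84 ± 0.99 at 3 W, with SDs several times those of Zic1 in the same arrays, whose means were 12.79 ± 0.10 and 12.69 ± 0.15.

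Slc47a1 encodes MATE1, a transporter that extrudes organic cations. Its EN levels were 9.27, 9.11 and 8.50 at P0, 7.33, 10.01 and 9.73 at 1 W, 8.00, 9.11 and 9.01 at 3 W and 8.33, 9.22 and 8.48 at 5 W. Its AN levels were 8.76, 8.99 and 8.38 at P0, 7.14, 9.18 and 9.62 at 1 W, 10.07, 8.94 and 11.78 at 3 W and 9.15, 10.60 and 9.07 at 5 W. It was the gene with the widest replicate spread, up to an SD of 1.47 in EN at 1 W, and the only one with a higher mean at 5 W than at P0 in AN. There the 5 W arrays were all above those of P0, yet the difference of 0.90 ± 0.75 missed the threshold (adjusted p = 0.333, 95% interval -0.67 to 2.46), as did that at 3 W, 1.55 ± 0.75 (adjusted p = 0.0899), which was 0.79 (adjusted p = 0.395) without AN 3 W replicate 3.

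**Figure D2:**
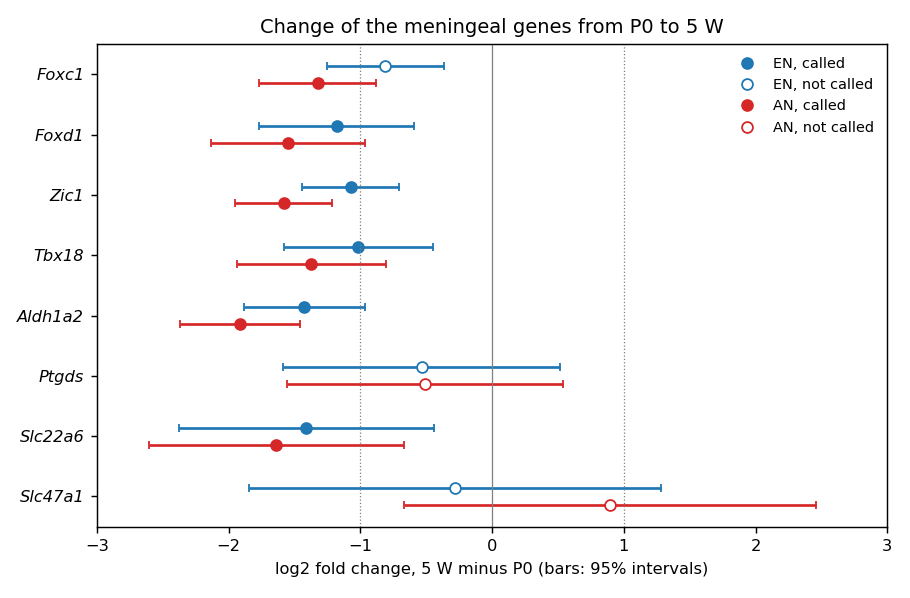
Log2 fold change from P0 to 5 W (horizontal axis) of each gene in EN (blue) and AN (red) by the limma fit of 3 arrays per group, with 95% intervals as bars, filled points for called changes and dotted lines at 2-fold. The 6 genes called in AN lie between -1.91 and -1.32, and the intervals of Ptgds and Slc47a1 cross 0 in both fibres.

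At 1 W and 3 W more of the genes were called in AN than in EN, although the difference in timing itself did not pass a test. At 1 W, Foxc1 and Zic1 were called in AN, 2 of 8 genes (background 8.58% of tested probes, 3.62% lower), and 0 of 8 in EN (background 11.9%, 5.67% lower). In EN at 1 W the adjusted p was below 0.05 for 1 of the 8 genes, Zic1, at a change of -0.53 (adjusted p = 0.0309), and the unadjusted p for 2, Zic1 and Foxc1. At 3 W, Foxc1, Foxd1, Tbx18 and Zic1 were called in AN, 4 of 8 (background 27.8%, 12.8% lower), and Tbx18 in EN, 1 of 8 (background 30.5%, 14.4% lower). The 3 W arrays shared no slide with P0, and other genes were called at 3 W with slide as a term, as given with Tbx18 above. Without AN 3 W replicate 3, Slc22a6 was called as well, which made 5 of 8 in AN. The count in AN at 1 W was 0 without AN P0 replicate 3, 1 without AN 1 W replicate 1 and 3 without AN P0 replicate 1, and that at 3 W was 2 without AN P0 replicate 2. Without AN P0 replicate 3, AN and EN thus had the same count at 1 W. Without EN P0 replicate 3 none was called at 3 W in EN. These counts without single arrays stand without the share of all tested probes called in the same fit. They may follow a change in how many probes were called in all. The test of the timing is the AN minus EN difference at a later age minus that at P0. None of the 8 genes was called in it at 1 W (background 0.0632%), at 3 W (0.525%) or at 5 W (0.931%). In this fit the unadjusted p was below 0.05 at 1 W for Zic1 (-0.59 ± 0.25, adjusted p = 0.579) and Aldh1a2 (-0.68 ± 0.31, adjusted p = 0.66). With the AN and EN arrays of the same age and number as a block, it was below 0.05 for 3 of the 8 genes at each later age. These included Foxc1 (-0.56 ± 0.15 at 1 W, -0.41 ± 0.15 at 3 W and -0.51 ± 0.15 at 5 W) and Zic1 (-0.59 ± 0.13, -0.44 ± 0.13 and -0.51 ± 0.13) at all of them. The remaining gene was Aldh1a2 at 1 W (-0.68 ± 0.21) and 5 W (-0.49 ± 0.21). At 3 W it was Slc47a1, with the opposite sign (1.80 ± 0.61). How many of all tested probes had an unadjusted p below 0.05 was not counted, here or in EN at 1 W. The counts by unadjusted p thus have no background and show no excess. The lowest adjusted p with the block was 0.0503, for Zic1 at 5 W, and none of the 8 genes was called (background 0.417%, 1.82% and 2.72% at the 3 ages).

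Only 2 slides, numbered 1 and 3, held both P0 and later arrays, and these give the change by age within 1 slide. At 1 W in AN the log2 difference from P0 for Foxc1 was -0.91 on slide 1 and -0.95 on slide 3, each under 2-fold. For Zic1 it was -0.83 and -1.20. Slc47a1 changed sign between the slides, with -1.62 and 0.94 in AN and -1.95 and 0.93 in EN. So did Ptgds, with -1.14 and 0.25 in AN and -0.53 and 0.39 in EN. Slide 1 held 1 array of each fibre at P0 and at 1 W. On slide 3, which held 1 array of 5 W and 2 of P0 for each fibre, the log2 difference from P0 to 5 W was -2.45 in AN and -1.41 in EN for Aldh1a2, -1.63 and -1.18 for Zic1, and -1.57 and -0.80 for Foxc1. On the same slide it was -1.78 in AN and -0.74 in EN for Foxd1, -1.37 and -1.09 for Slc22a6, and -1.33 and -0.85 for Tbx18. All 6 genes thus moved the same way within this slide as over all arrays. Slc47a1 was higher at 5 W on this slide by 1.92 in AN and 0.42 in EN, and Ptgds differed by 0.16 and -0.07.

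The AN to EN comparison asks whether dorsal and ventral roots differ in these genes at one age. At P0 none of the 8 genes was called (0.327% of all tested probes were), at 1 W none (2.79%), at 3 W 1, Tbx18 (3.11%), and at 5 W none (3.31%). Averaged over the 4 ages none passed 2-fold, where 3.58% of all tested probes did. With the adjusted p alone, 4 of the 8 genes differed in this average, all lower in AN, where 19.4% of all tested probes differed by that rule and 10.3% were lower in AN. These were Tbx18 at -0.82 ± 0.13 (adjusted p = 0.000258), Foxc1 at -0.57 ± 0.11 (adjusted p = 0.00078), Foxd1 at -0.63 ± 0.14 (adjusted p = 0.00344) and Aldh1a2 at -0.35 ± 0.11 (adjusted p = 0.0279). The folds behind these values were 1.77, 1.49, 1.55 and 1.28. Without AN 3 W replicate 3, Slc22a6 joined them (-0.67, adjusted p = 0.00985) and the other 4 kept an adjusted p below 0.05.

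**Figure D3:**
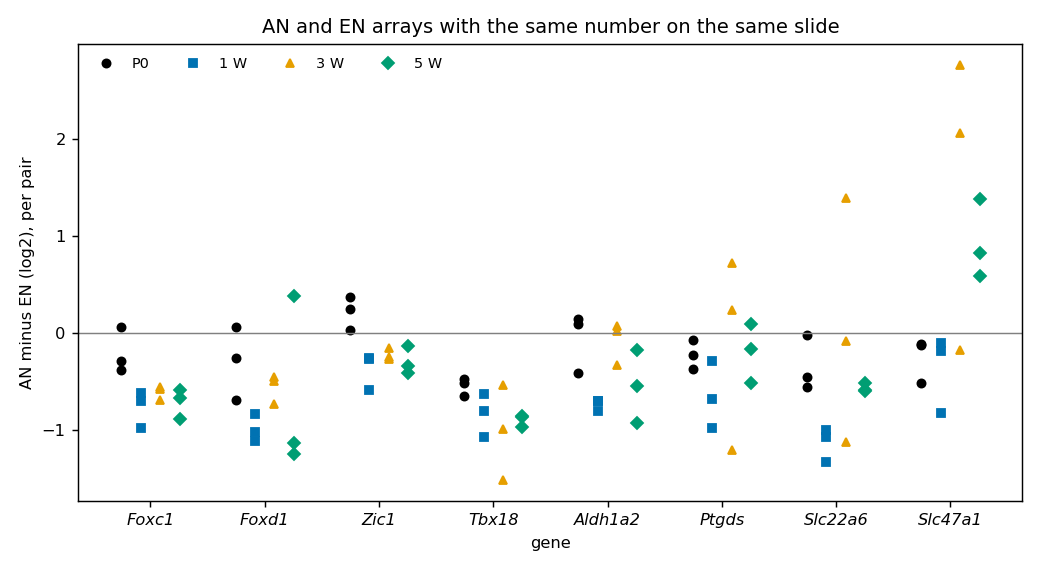
AN minus EN difference in log2 signal (vertical axis) for each of the 12 pairs of arrays of the same age, number and slide, by gene, with a marker for each age. All 12 differences of Tbx18 and 11 of 12 of Foxc1 and Slc22a6 are below 0, and those of Slc47a1 at 5 W are above it.

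Tbx18 showed the steadiest difference. Its AN minus EN values by pair were -0.64, -0.47 and -0.51 at P0, -1.07, -0.80 and -0.62 at 1 W, -0.99, -0.54 and -1.52 at 3 W and -0.87, -0.97 and -0.86 at 5 W. EN was higher in 12 of 12 pairs, which held for 4.91% of all tested probes, and the groups did not overlap at any age. The difference at 3 W, -1.01 ± 0.27 (2.02-fold, adjusted p = 0.0307), sat at the 2-fold limit, and the fit gave -0.90 at 5 W (adjusted p = 0.0508). Leaving out any 1 of the 3 W arrays other than AN replicate 2 ended the call at 3 W, with values from -1.07 to -0.85.

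Foxc1 was higher in EN in 11 of 12 pairs, and at 1 W, 3 W and 5 W in all 9. By pair the AN minus EN values were -0.38, -0.28 and 0.06 at P0, -0.70, -0.62 and -0.98 at 1 W, -0.58, -0.69 and -0.55 at 3 W and -0.67, -0.88 and -0.59 at 5 W. The adjusted p was 0.0484 at 1 W and 0.0495 at 5 W, at folds of 1.70 and 1.64. Slc22a6 was also higher in EN in 11 of 12 pairs, and a count of 11 or more was found in 12.2% of all tested probes. Its one exception, 1.40, was the pair with AN 3 W replicate 3. Foxd1 was higher in EN in 10 of 12 pairs, Zic1 and Ptgds in 9, Aldh1a2 in 8 and Slc47a1 in 7.

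Zic1 and Slc47a1 changed sides. The AN minus EN values of Zic1 were 0.03, 0.24 and 0.37 at P0, all above 0, and -0.27, -0.26 and -0.59 at 1 W, -0.16, -0.26 and -0.24 at 3 W and -0.41, -0.14 and -0.34 at 5 W, all below 0. Those of Slc47a1 were -0.51, -0.11 and -0.12 at P0 and -0.19, -0.83 and -0.11 at 1 W, all below 0, then 2.07, -0.18 and 2.77 at 3 W and 0.83, 1.38 and 0.59 at 5 W, where 2 of 3 and 3 of 3 were above 0. By the test of the difference between ages neither turn passed, with an adjusted p of 0.478 for Zic1 at 5 W (-0.51 ± 0.25, and 0.0503 with the pairs as a block) and 0.80 for Slc47a1 (1.18 ± 1.06).

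Because the AN and EN arrays of a pair deviated together, the comparison was also fitted with the pair as a block, an alternative added after the data were seen. The block left Tbx18 called at 3 W (-1.01 ± 0.15, adjusted p = 0.00232) and added Slc47a1 at 3 W, higher in AN (1.55 ± 0.43, adjusted p = 0.0307), so that 2 of 8 genes were called there against 4.78% of all tested probes. Without the block the same Slc47a1 value had an adjusted p of 0.262, and its 3 pairs ranged from -0.18 to 2.77. Without AN 3 W replicate 3 the unblocked value was 0.79 (adjusted p = 0.681). By the adjusted p alone, 5 of the 8 genes differed at 1 W with the block (10.8% of all tested probes did), all lower in AN: Foxc1 (adjusted p = 0.00377), Tbx18 (0.0102), Aldh1a2 (0.0144), Zic1 (0.0349) and Foxd1 (0.0423). At 3 W it was 3 (21.1%), Tbx18, Foxc1 (0.00429) and Slc47a1. At 5 W it was 4 (23.5%), all lower in AN: Foxc1 (0.00176), Tbx18 (0.00348), Aldh1a2 (0.0262) and Zic1 (0.0475). Without the block it was 1 gene at each of these ages. In the average over ages, 6 of the 8 genes had an adjusted p below 0.05 with the block (39.1% of all tested probes did), all lower in AN: the 4 above, Zic1 (-0.17 ± 0.05, adjusted p = 0.0181) and Slc22a6 (-0.49 ± 0.17, adjusted p = 0.0432). None of these 6 averages passed 2-fold.

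The genes also differed in how they varied among replicates. Deviations of the 24 arrays from their group means correlated across arrays with r = 0.95 between Ptgds and Slc47a1, 0.91 between Ptgds and Slc22a6 and 0.85 between Slc47a1 and Slc22a6. These values are descriptions over 24 arrays in 8 groups, and all genes of an array share its tissue, amplification and normalization. Foxc1 and Zic1 had r = 0.74 with each other, 0.35 and 0.24 with Ptgds and 0.43 and 0.27 with Slc22a6. Tbx18 had r between -0.09 and 0.28 to each of the 7 others. Without AN 3 W replicate 3, left out after the data were seen, the first 3 values were 0.93, 0.94 and 0.82 over 23 arrays, and that of Foxc1 and Zic1 was 0.79. Slc22a6 then had 0.54 with Zic1, 0.48 with Foxd1, 0.46 with Foxc1 and with Aldh1a2, and 0.45 with Tbx18. Over the 24 arrays themselves, with age and fibre left in, Foxc1 and Zic1 came first of all pairs with r = 0.88, followed by Zic1 and Aldh1a2 with 0.87.

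The array by array values show the shared spread of Ptgds, Slc47a1 and Slc22a6. In the AN 1 W group, replicate 1 was low in Ptgds (15.36 against 17.02 and 17.14), in Slc47a1 (7.14 against 9.18 and 9.62) and in Slc22a6 (8.47 against 9.55 and 9.65). In the AN 3 W group, replicate 3 was the highest and replicate 2 the lowest in all 3 genes. The mean of a list of perineurial genes, of which 6 of 7 were tested, moved with them, though not each of its genes did. This mean level was 10.94, 11.47 and 11.68 in AN at 1 W and 12.32, 11.89 and 12.69 at 3 W. The within-group r with that list was 0.96 for Ptgds, 0.96 for Slc47a1 and 0.86 for Slc22a6, and at most 0.46 for the other 5 genes. Without AN 3 W replicate 3 it was 0.95, 0.95 and 0.88 for the first 3 and at most 0.44 for the others. Other lists moved with the 3 genes as well. The r with the mean of the other leptomeningeal genes was 0.84 for Ptgds, 0.80 for Slc47a1 and 0.91 for Slc22a6, and it was 0.70 for Foxc1, 0.57 for Foxd1, 0.51 for Aldh1a2, 0.50 for Zic1 and 0.08 for Tbx18. For Ptgds, Slc47a1 and Slc22a6 it was 0.53, 0.51 and 0.67 with the sensory neuron list, 0.43, 0.37 and 0.49 with the muscle list and 0.53, 0.50 and 0.43 with the fibroblast list, which had 0.74 with Zic1 and 0.69 with Foxc1. With the Schwann cell list all 8 genes had r below 0, from -0.52 to -0.11. Among the perineurial genes Msln and Lypd2 had r from 0.84 to 0.95 to the 3 genes, and Cldn1, a tight junction protein, had 0.59 to 0.70. Slc2a1, a glucose transporter, had 0.10 to 0.17, Tjp1 had 0.17 to 0.25 and Itgb4, an integrin chain, -0.40 to -0.21. How much sheath tissue each sample held was not measured.

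**Figure D4:**
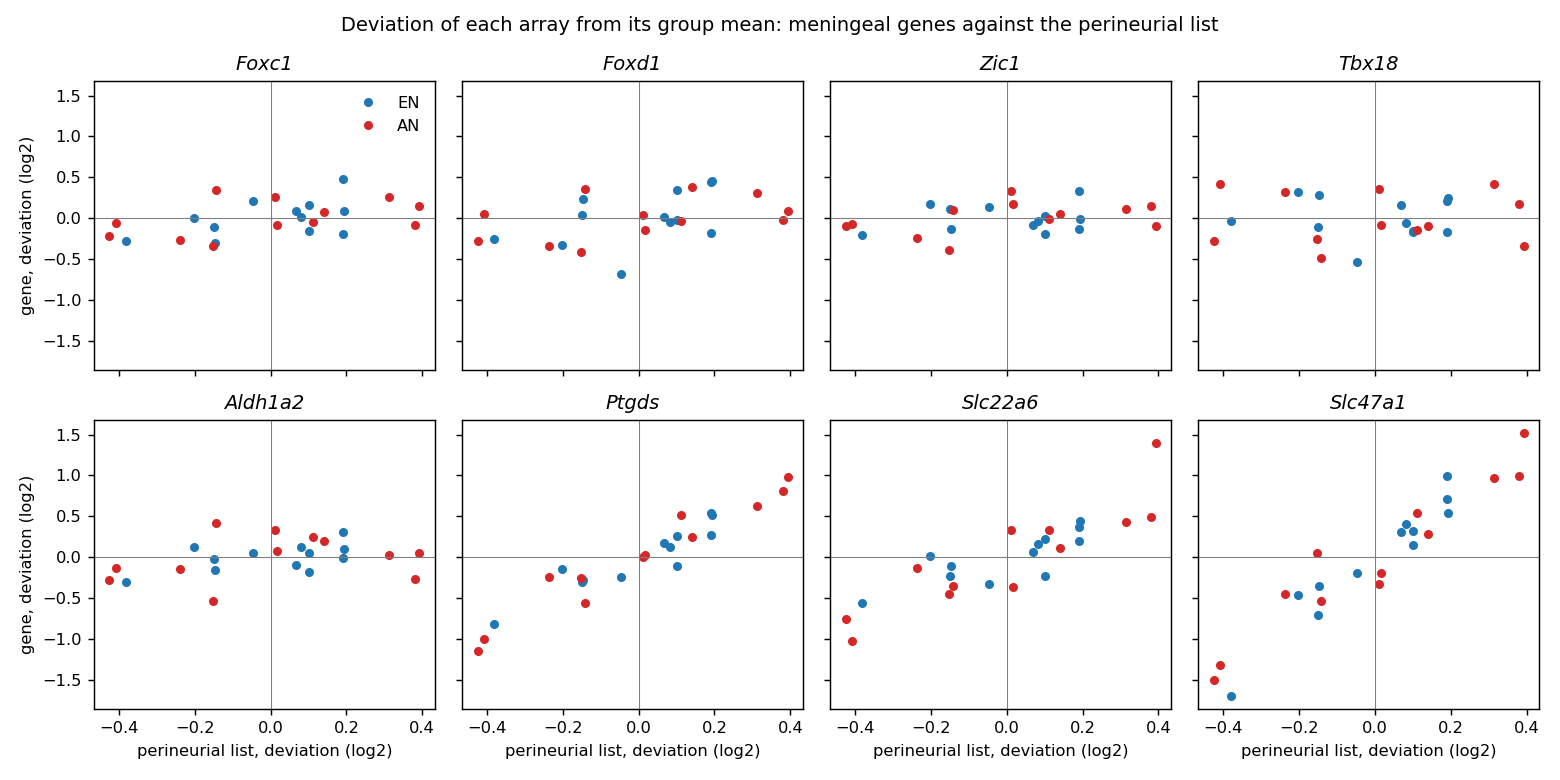
Deviation of each of the 24 arrays from its group mean in log2 units for each gene (vertical axes) against that of the mean of 6 perineurial genes (horizontal axes), EN in blue and AN in red. The points of Ptgds, Slc22a6 and Slc47a1 follow a rising line (r = 0.96, 0.86 and 0.96), while those of Tbx18 do not. Of the 6 perineurial genes, Slc2a1, Tjp1 and Itgb4 each had r of at most 0.25 with Ptgds, Slc22a6 and Slc47a1.

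Other genes of the leptomeninges and arachnoid barrier, from a list of 20 that were all tested, moved in both directions. From P0 to 5 W, 12 of 20 fell and 2 rose in AN (median log2 change -1.29), and 10 fell and 3 rose in EN (median -0.93). Igf2, a growth factor of the fetal leptomeninges, fell from 15.32 to 11.33 in AN (-3.99 ± 0.35, adjusted p = 2.85e-08) and in EN as well (-3.33, adjusted p = 2.98e-07). Slc6a13, the GABA and taurine transporter GAT2, fell, with changes of -1.69 in AN (adjusted p = 2.73e-08) and -1.13 in EN (adjusted p = 4.01e-06). Slc22a2, which encodes the organic cation transporter OCT2 and was well above background on 2 of 3 EN arrays at P0, rose instead, from 5.44 to 9.54 in AN (4.11 ± 0.27, adjusted p = 5.58e-10) and from 5.78 to 10.74 in EN (4.95 ± 0.27, adjusted p = 5.49e-11). It was also the only gene of this list called in AN against EN in the average over ages, lower in AN (-1.03 ± 0.13, adjusted p = 3.22e-05).

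Of the retinoic acid pathway around Aldh1a2, 15 of 17 genes were tested, and 3 rose and 3 fell from P0 to 5 W in AN, and 3 rose and 4 fell in EN. While Aldh1a2 fell, Aldh1a1, another retinaldehyde dehydrogenase, rose from 10.75 to 14.72 in AN (3.97 ± 0.31, adjusted p = 4.96e-09) and by 3.46 in EN (adjusted p = 3.23e-08). Dhrs3, which turns retinaldehyde back into retinol, rose by 1.61 in AN and 1.28 in EN (adjusted p = 7.52e-06 and 9.06e-05). Crabp1, the relative of the unmeasured Crabp2, fell in EN at a change of -3.41 (adjusted p = 1.26e-07), and the receptor gene Rarg rose in AN by 1.77 (adjusted p = 2.51e-06). Between the fibres, Rxrg (1.37 ± 0.10, adjusted p = 5.80e-08) and Crabp1 (1.21 ± 0.17, adjusted p = 6.20e-05) were higher in AN over the ages.

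Of the prostaglandin genes around Ptgds, 11 of 13 were tested, and 4 rose and 0 fell from P0 to 5 W in AN, and 4 rose and 1 fell in EN. Hpgd, which degrades prostaglandins, rose by 2.27 in AN (adjusted p = 1.56e-06) and 3.55 in EN (adjusted p = 5.11e-09). Ptgs2, the inducible cyclooxygenase, also rose, but it was well above background on 0 of the 6 arrays of P0, so that no fold is given, and on all 6 of 5 W. Ptges and Ptges3, which encode prostaglandin E synthases, were not called, with log2 differences of 0.38 and -0.02 in AN. Ptgdr, a receptor for prostaglandin D, was the only one of these genes called between the fibres over the ages, higher in AN (adjusted p = 0.0171). No fold is given, since it was well above background on 10 of 12 AN arrays and only 2 of 12 EN arrays.

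Of the organic ion transporters beside Slc22a6 and Slc47a1, 10 of 12 were tested, and 4 rose and 1 fell from P0 to 5 W in AN, and 6 rose and 1 fell in EN. Slco1a4, an organic anion transporter of brain vessels that was well above background on 2 of 3 arrays of each fibre at P0, rose by 5.35 in AN and 5.42 in EN (adjusted p = 6.14e-11 and 5.64e-11). Slco1c1, a thyroid hormone transporter, rose by 2.04 and 3.41 (adjusted p = 1.05e-05 and 1.77e-08). The transporter genes that were called thus mostly rose over the weeks in which Slc22a6 fell.

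Genes of other cells changed in the same comparisons, and their part in the changes of the meningeal genes was not tested. From P0 to 5 W, 7 of 8 sensory neuron genes fell in EN and 5 of 8 in AN, and 5 of 6 skeletal muscle genes fell in EN and 3 of 6 in AN. Of 5 tested motor neuron genes, of which Prph is also on the sensory neuron list, 4 fell in EN and 3 in AN. In AN at 3 W the muscle list stood at 10.37, 8.20 and 11.44, so that replicates 1 and 3 were above every EN array from 1 W on and replicate 2 was not. Of 8 Schwann cell genes 2 rose in EN and 4 in AN, with S100b at 2.96 and 3.57. Of 6 perineurial genes, 2 rose and 1 fell in AN and 2 rose and none fell in EN (median log2 change 0.31 in AN and -0.02 in EN). Slc2a1 rose by 2.15 in AN and 2.31 in EN, and Itgb4 by 1.49 and 1.58, while Cldn1 fell in AN (-1.36). Of 11 fibroblast genes of the endoneurium and epineurium, 3 rose and 2 fell in AN and 4 rose and 3 fell in EN, with Dcn at 1.26 and 1.51. Of 8 mural cell genes, which bear on Tbx18, none was called in AN and 3 rose and 1 fell in EN. Of 6 endothelial genes, 2 fell in AN and 1 in EN, with Cdh5 at -1.86 and -1.08. Of 6 genes of the choroid plexus, 1 rose and 1 fell in AN and 2 rose and 1 fell in EN, with Ttr at -3.92 and -2.73. Of 8 oligodendrocyte genes, which bear on Ptgds, 3 rose in AN, and 2 rose and 3 fell in EN.

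Between the fibres the other lists differed in ways of their own. In the average over ages, 7 of 8 sensory neuron genes and 4 of 6 astrocyte genes were higher in AN, among them Gfap (1.72 ± 0.30) and Aqp4 (1.83 ± 0.26), as were 2 of 8 oligodendrocyte genes, Olig1 and Olig2. None of the 6 perineurial, 11 fibroblast, 8 mural, 6 endothelial and 8 Schwann cell genes was called in that average. The median log2 difference was -0.42 over the 8 meningeal genes and -0.23 over the 20 other leptomeningeal genes, where it was -0.32 over the fibroblast list, -0.16 over the mural list and -0.03 over all tested probes. It was also -0.33 over the choroid plexus list, -0.29 over the muscle list, -0.19 over the perineurial list, -0.15 over the Schwann cell list and -0.14 over the endothelial list. It was 2.58 over the sensory neuron list, 1.22 over the astrocyte list, 0.56 over the oligodendrocyte list and 0.32 over the motor neuron list.

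The genes most like these in their course were sought among 23850 genes with a tested probe, by Pearson r over the 24 arrays, as a description. With the mean of the 8 genes' standardized levels, Osr1 (r = 0.93), Foxc2 (0.93) and Ildr2 (0.93) came first. Foxc2 is the forkhead relative of Foxc1, and Osr1 a zinc finger transcription factor of mesenchyme. For single genes, Foxc1 was closest to Ifitm1 (0.97), Sdc1 (0.95) and Ccnd2 (0.93), Foxd1 to Foxc2 (0.93), Slc6a13 (0.91) and Cxadr (0.90), and Zic1 to Plagl1 (0.95), N4bp2 (0.94) and Golm1 (0.94). Tbx18 was closest to Prtg, Hic1 and Lgr4 (0.93 each), and Aldh1a2 to Slc6a13 (0.96), Wdr86 (0.93) and Gm12829 (0.91). Ptgds was closest to Slc16a11 (0.87), Lypd2 (0.86) and Msln (0.86), and Slc47a1 to Dapl1 (0.92), Prg4 (0.90) and Rhpn2 (0.85). Slc22a6 was closest to Ildr2 (0.94), an unnamed transcript of chromosome 3 (0.93) and Osr1 (0.91).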

How the data were processed

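The 24 one-colour arrays (Agilent mouse design, Cy3) carried 59305 gene spots and 3671 control spots each, and 56605 gene probes. Per the labels and methods, the authors scanned them with an Agilent scanner and read the images with Agilent Feature Extraction 10.7.1.1. The headers of its files name the mm9 build. The authors normalized the values by quantiles in GeneSpring, and the log2 values they deposited were used as they stand. The intensities in the deposited scanner files (background-subtracted signal, mean signal and local background) served for detection and for alternatives. Each column of the deposited log2 table correlated with its own scanner array at r = 0.9955 or more, with slopes of 0.951 to 1.06, and all columns had a median of 6.32. Groups were taken from the labels, whose titles write 0h where the stage is P0.

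A probe was tested where some group had it well above background on each of its 3 arrays, which held for 36409 probes (64.3%). A linear model with 8 group means was fitted with limma 3.58.1 (R 4.3.3) with empirical Bayes, 16 residual degrees of freedom and Benjamini-Hochberg adjustment over all tested probes. Intervals are 95% intervals of that fit. The number of arrays limits the precision. The script was also run on simulated data with independent errors, a setting without the correlation within pairs described next. Deviations of the AN and EN arrays of the same age and number correlated in all 12 pairs (r = 0.107 to 0.646), and each pair lay on 1 slide. With replicate number as a block no count of called genes moved.

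The 9 genes and all lists beside them (20 other leptomeningeal genes, pathway genes, markers of other cells) were chosen with earlier results of these data known. Genes of a list are named where they had the highest mean level or the largest called change in a comparison, up to 2 of each. Single perineurial genes beside the replicate spread were chosen after their values were seen. RefSeq tables gave gene positions and promoters. No column of per-sample values was left unused (0).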

Additional observations from a re-analysis of the deposited data

How the results depend on the processing

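No value of a called gene changed sign under any alternative run. Over the 19 called values, 653 values under alternatives stayed called and 51 lost the call. Of 3496 values of uncalled results, 82 took the other sign and 16 became called. With background correction by normexp (offset 50) the number of the 8 genes called was 0 for AN against EN at 3 W, 3 for 5 W in EN and 1 for 1 W in AN. Scaling the scanner signal to the 75th percentile gave 3 for 5 W in EN, 0 for 1 W in AN and 2 for 3 W in AN. With slide as a block 2 genes were called at 3 W in EN and 1 at 1 W in AN. Array quality weights, lowest for AN 3 W replicate 3 (0.216), gave 1 for AN against EN at 1 W, 0 at 3 W and 1 at 5 W. The unadjusted p gave 1 at 1 W, a fit of the groups compared alone gave 0 at 3 W, and the replicate block by pairs gave 2 at 3 W. The cause of these shifts was not tested. Except for the pairs (4.78% of all tested probes at 3 W), the share of all tested probes called under each setting is not given here. A shift may therefore follow a change in how many probes were called in all. The planned replicate block, with replicate number as a term, moved no count (5 of 8 genes in EN and 6 of 8 in AN at 5 W), nor did the filters on dim probes.

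Leaving out single arrays or one replicate number, the counts ranged from 0 to 1 for AN against EN at 3 W, 0 to 2 at 5 W, 0 to 1 for 3 W in EN, 2 to 5 for 5 W in EN, 0 to 3 for 1 W in AN, 2 to 5 for 3 W in AN and 5 to 6 for 5 W in AN, and were 0 elsewhere. For 5 W in EN the count was 2 without EN 5 W replicate 3 and 3 without EN P0 replicate 3. For 3 W in AN it was 2 without AN P0 replicate 2. For 1 W in AN it was 0 without AN P0 replicate 3 and 1 without AN 1 W replicate 1. For 3 W in EN it was 0 without EN P0 replicate 3. For AN against EN at 5 W it was 1 without AN 5 W replicate 1 and 2 without EN 5 W replicate 3. These counts, too, stand without the share of all tested probes called in the same run. The mean of all probes of a gene could not differ, with 1 probe each, and the fit of the groups compared alone was the main fit for the average over ages. All 8 probes were well above background on every array, so that none of these values lay at the detection floor. Whether high signals were compressed was not tested.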
